A study of Mus musculus with 10 samples.

Results

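Bile ducts form in the fetal liver when hepatoblasts, the precursors shared with hepatocytes, that lie next to the portal vein turn on a biliary program and build first a plate and then a tube of cholangiocytes. Notch signalling is known for directing this step. A ligand such as JAG1 on portal mesenchyme binds NOTCH2 on hepatoblasts, the receptor is cleaved, and its intracellular part joins RBPJ in the nucleus to turn on genes of the HES and HEY families and SOX9.

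The 10 genes described are 5 markers of the biliary lineage (Krt19, Krt7, Sox9, Spp1 and Epcam), the Notch ligand Jag1, the receptor Notch2, the target genes Hes1 and Hey1, and Sox4, which acts with Sox9 in duct formation. They were taken by name from the 55401 genes of a liver RNA-seq count table, and all 10 passed the filter on low counts, as did 14098 genes in all. Livers came from female E18.5 fetuses, shortly before birth. The 5 Mir483Pat-KO fetuses carried a constitutive deletion of the microRNA gene Mir483 inherited from the father, and the 5 controls were WT littermates. The deletion was made in targeted JM8.F6 embryonic stem cells of C57BL/6N origin, its selection cassette was removed with Cre, and the line was kept on C57BL/6J. It was present in every tissue from the start of development, so that no result can be tied to a cell type. The tissue was whole liver, in which cholangiocytes are a small population among hepatocytes and blood-forming cells. In such bulk samples, fewer cells of a type and less RNA per cell cannot be told apart. Each library carries an identification number of its own in the labels, which do not name the litters.

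Total counts ranged from 10831350 to 14765880 per library. Mir483 itself, the check of the labels, had 11, 10, 22, 21 and 12 counts in WT replicates 1 to 5 and 0 counts in all 5 Mir483Pat-KO libraries, where the floor was 3 counts per library. The hepatocyte markers that define the tissue summed to 190300 CPM (counts scaled by the size of the library) or more in every library. By the identification numbers in the labels the libraries form a lower range (WT replicates 1 to 4 and Mir483Pat-KO replicates 1 and 2) and an upper range (WT replicate 5 and Mir483Pat-KO replicates 3 to 5), and what a range stands for is not stated.

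Mir483 yields 2 mature microRNAs, whose sequences are shown because pairing of their seed (bases 2 to 8, in capitals) with a transcript is how a microRNA recognises targets. Both lie on the minus strand of chromosome 7 (RefSeq, GRCm38.p6), miR-483-3p at chr7:142654932-142654952 and miR-483-5p at chr7:142654968-142654989.
miR-483-3p: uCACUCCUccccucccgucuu
miR-483-5p: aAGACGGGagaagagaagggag

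The longest annotated 3′ UTR of each gene (GENCODE M21, GRCm38) was searched for the 7 bases complementary to each seed, AGGAGTG for miR-483-3p and CCCGTCT for miR-483-5p. Of the 10 genes, Krt7 held 1 site for miR-483-3p, at base 145 of a UTR of 2648 bases, and Notch2 held 1 site for miR-483-5p, at base 463 of a UTR of 2917 bases. Each is shown 5′ to 3′ on the transcript's strand with the match in capitals, Krt7 at chr15:101427798-101427827 (plus strand) and Notch2 at chr3:98147895-98147924 (plus strand).
Krt7, miR-483-3p match: catcggctagctAGGAGTGgtactcacagg
Notch2, miR-483-5p match: ttcctctctgcgCCCGTCTgtggttgatcc

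Such a match was not rare. Of the 12875 tested genes with a 3′ UTR, 1620 (12.6%) held the miR-483-3p match and 422 (3.28%) held the miR-483-5p match, in UTRs with a median length of 1184 bases. Neither site had an A opposite position 1 of the microRNA. A match describes letters and is not evidence of binding.

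RBPJ, the DNA-binding partner of the cleaved Notch receptor, is known to bind a TGGGAA core. Promoter windows of 250 bases before to 50 bases after the start site (RefSeq, GRCm38.p6) were at hand for Krt7, Spp1, Epcam, Jag1, Notch2 and Sox4. The core was searched on both strands, and 25.6% of 32851 windows held it. Among these 6 genes Sox4 held it, 100 bases before the start site, shown in capitals within chr13:28953767-28953826 on the minus strand.
Sox4 promoter: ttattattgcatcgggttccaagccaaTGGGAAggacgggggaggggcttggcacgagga

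The genes spanned a wide range of levels. Per kilobase of exon, the scale used to set one gene against another, Spp1 was the most abundant at 29.5 ± 10.3 CPM per kb in WT, ahead of Notch2 at 8.45 ± 0.585 and Hes1 at 4.16 ± 0.673 (SD, n = 5). Sox4, Krt19, Epcam, Jag1 and Sox9 followed with WT means of 3.09, 2.82, 1.80, 1.57 and 1.13 CPM per kb. Krt7 at 0.701 ± 0.167 and Hey1 at 0.486 ± 0.147 CPM per kb were the lowest. The rank order of the 10 means was the same in Mir483Pat-KO. Between neighbours in that order, the WT ranges were separate for Spp1 and Notch2, for Notch2 and Hes1, and for Sox9 and Krt7, and they overlapped for the other 6 pairs. Compared within each library, Jag1 was above Sox9 in 10 of 10 and Sox4 above Krt19 in 9 of 10, and in the remaining 4 overlapping pairs the order held in 8 of 10.

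**Figure D1:**
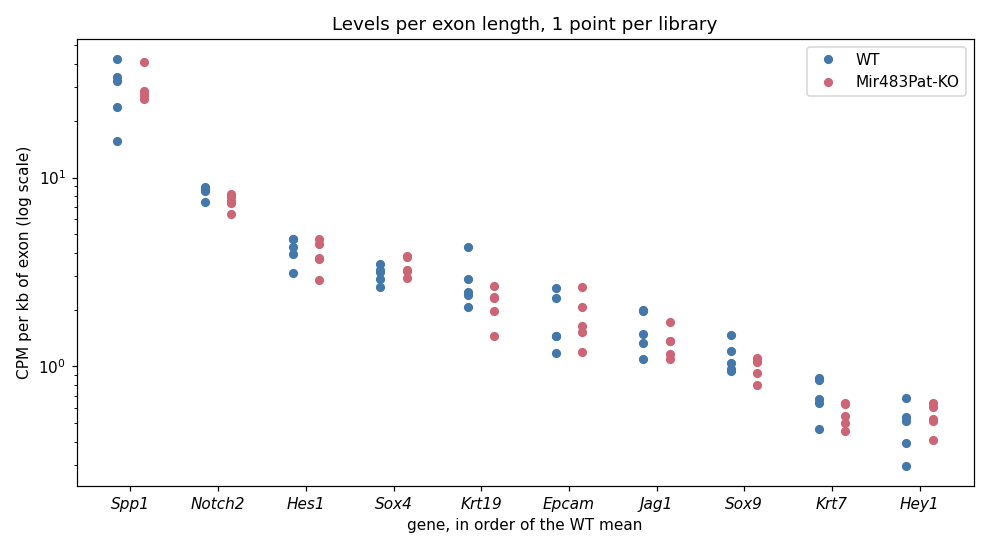
CPM per kb of exon (log scale) of the 10 genes, in order of the WT mean, with 1 point per library (blue, WT; red, Mir483Pat-KO; n = 5 per group). Spp1 sits above all other genes in every library, and the groups overlap at every gene.

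None of the 10 genes differed between genotypes by edgeR's quasi-likelihood test (0 of 10 with a Benjamini-Hochberg adjusted p under 0.05), where 5.19% of all genes tested passed and 1.23% were called, meaning that they also changed by more than 1.5-fold. DESeq2 and limma-voom also passed 0 of the 10. At an unadjusted p under 0.05, 1 of the 10 genes was counted, Notch2, against 22.2% of all genes. In no gene were the 2 groups separate, where 3.25% of all genes had every Mir483Pat-KO library below every WT library and 3.33% had every one above. The log2 fold changes were negative for 7 genes and positive for 3, with a median of −0.13 against 0.0042 over all genes. Krt19, Krt7, Sox9, Jag1 and Notch2 stayed negative and Hey1 and Sox4 positive under each of the 21 alternatives, whereas Spp1, Epcam and Hes1 changed sign under at least 1. The sizes were less stable than the signs, as the values beside each gene show.

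Counts differed widely between the genes. Hey1 had 11 to 32 counts per library, and Krt19, Krt7, Sox9 and Epcam had between 31 and 104. Spp1 had 308 to 907 counts, yet its SE (0.19, log2 scale) was larger than that of Sox9 (0.16), so that counts alone did not set the precision. The 95% intervals of 6 genes (Sox9, Spp1, Epcam, Notch2, Hes1 and Sox4) lay within 1.5-fold in both directions. For Krt19, Krt7, Jag1 and Hey1 a change of 1.5-fold in 1 direction lay inside the interval.

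**Figure D2:**
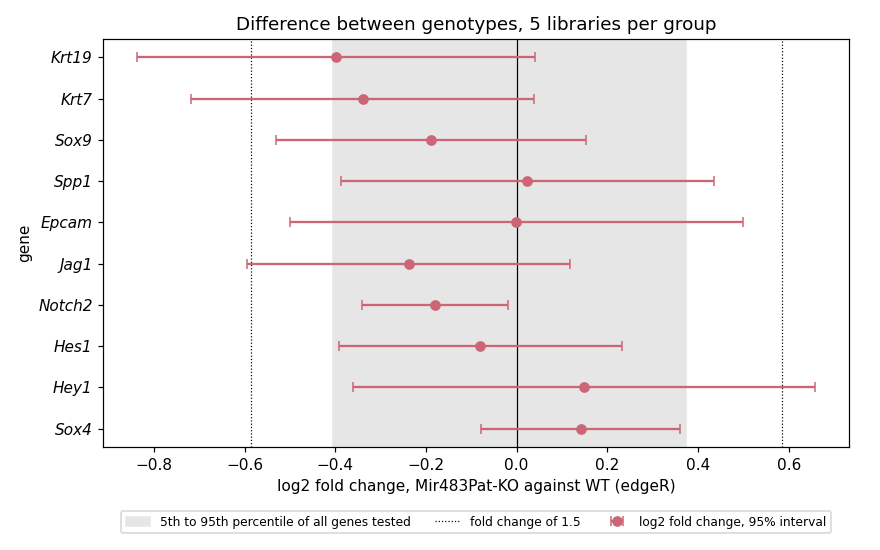
Log2 fold change of each gene, Mir483Pat-KO against WT, with its 95% interval from edgeR (5 libraries per group). Dotted lines mark a fold change of 1.5 and the grey band the 5th to 95th percentile of all genes tested (−0.40 to 0.37), and the Notch2 interval alone does not reach 0.

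The cytokeratins Krt19 and Krt7 are intermediate filament proteins of the cholangiocyte and are used to stain bile ducts. Krt19 (chr11:100140810-100148665, minus strand) had 3.81, 4.43, 5.35, 7.99 and 4.57 CPM in WT replicates 1 to 5 and 3.66, 4.28, 2.68, 4.32 and 4.93 CPM in Mir483Pat-KO replicates 1 to 5. WT replicate 4 was the highest library, Mir483Pat-KO replicate 3 the lowest, and the remaining 8 libraries overlapped between 3.66 and 5.35. The means were 5.23 ± 1.64 and 3.97 ± 0.852 CPM (SD, n = 5), a log2 fold change of −0.40 (SE 0.21, fold 0.759, 95% interval 0.560 to 1.03, edgeR adjusted p = 0.272). Without WT replicate 4 the log2 fold change was −0.20.

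Krt7 (chr15:101411043-101430313, plus strand), which held the miR-483-3p match shown above, had 3.28, 4.77, 6.0, 6.15 and 4.50 CPM in WT and 3.20, 4.43, 3.52, 3.87 and 4.53 CPM in Mir483Pat-KO. WT replicates 2, 3 and 4 lay above every Mir483Pat-KO library, and WT replicate 1 lay among the lowest. Its log2 fold change was −0.34 (SE 0.18, 95% interval of the fold 0.608 to 1.03, edgeR adjusted p = 0.279). A higher level in Mir483Pat-KO was thus not seen.

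Sox9, a transcription factor that is among the earliest marks of the ductal plate, lies at chr11:112782224-112787760 (plus strand). It had 3.90, 4.01, 5.00, 6.07 and 4.29 CPM in WT and 3.82, 4.36, 3.29, 4.41 and 4.60 CPM in Mir483Pat-KO. As for Krt19, WT replicate 4 was the highest and Mir483Pat-KO replicate 3 the lowest. The means of 4.66 ± 0.900 and 4.09 ± 0.537 CPM (SD, n = 5) gave a log2 fold change of −0.19 (SE 0.16, 95% interval of the fold 0.693 to 1.11, edgeR adjusted p = 0.528), and without WT replicate 4 it was −0.083.

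Spp1 encodes osteopontin, a secreted phosphoprotein made by biliary cells and also by other cells such as macrophages. It lies at chr5:104435118-104441050 (plus strand), and 18.8% of its exonic bases are shared with the same-strand gene Gm42793, so that some of its reads could have been assigned to neither. It had 53.4, 25.8, 55.9, 69.7 and 38.7 CPM in WT and 43.1, 67.0, 45.3, 47.4 and 44.9 CPM in Mir483Pat-KO. In Mir483Pat-KO 4 of 5 libraries sat close together, replicate 2 stood above them, and the WT libraries spread on both sides. The log2 fold change was 0.024 (SE 0.19, 95% interval of the fold 0.764 to 1.35, edgeR adjusted p = 0.960), and it turned to −0.14 and −0.049 without WT replicates 2 and 5, and to −0.12 without Mir483Pat-KO replicate 2.

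Epcam, an adhesion molecule of hepatoblasts and cholangiocytes, lies at chr17:87635979-87651129 (plus strand). It had 3.19, 2.59, 5.07, 5.69 and 3.17 CPM in WT and 3.35, 5.78, 4.51, 3.60 and 2.63 CPM in Mir483Pat-KO. Both groups held libraries near 3 and near 5 CPM and their means, 3.94 ± 1.35 and 3.97 ± 1.21 CPM (SD, n = 5), hardly differed. The log2 fold change was −0.00073 (SE 0.24), the 95% interval of the fold was 0.707 to 1.41 (edgeR adjusted p = 0.999), and the sign was not stable between settings.

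**Figure D3:**
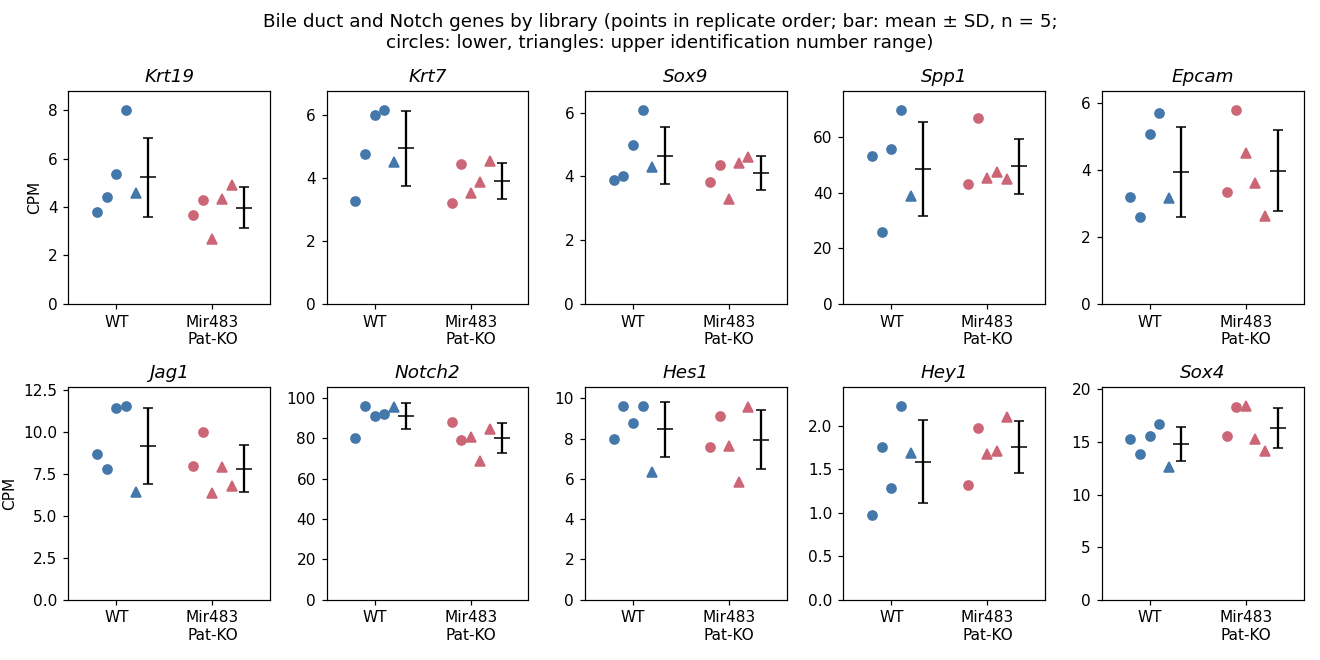
CPM of each gene by library, points in replicate order within a group, with the mean and SD beside them (n = 5 per group). Circles are libraries of the lower and triangles of the upper identification number range, and WT replicate 4, the fourth WT point, is the highest of all 10 libraries for Krt19, Krt7, Sox9, Spp1, Jag1 and Hey1.

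Jag1 is the Notch ligand that the portal mesenchyme presents to the forming duct, and lies at chr2:137081456-137116644 (minus strand). It had 8.69, 7.78, 11.4, 11.5 and 6.40 CPM in WT and 7.95, 9.98, 6.35, 7.93 and 6.77 CPM in Mir483Pat-KO. WT replicates 3 and 4 were the 2 highest libraries and the rest were mixed. The log2 fold change was −0.24 (SE 0.17, 95% interval of the fold 0.663 to 1.08, edgeR adjusted p = 0.430). It was −0.052 with the range as a covariate, and −0.16 and −0.15 without WT replicates 3 and 4.

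Notch2 encodes the main Notch receptor of hepatoblasts and lies at chr3:98013527-98150361 (plus strand), with 5.02% of its exonic bases shared with the same-strand gene Gm42820. It had 763 to 1356 counts per library, the most of the 10 genes. It had 80.4, 96.1, 91.2, 92.3 and 95.4 CPM in WT and 88.1, 79.4, 80.8, 68.7 and 84.8 CPM in Mir483Pat-KO. In WT 4 of 5 libraries lay above all Mir483Pat-KO libraries, and WT replicate 1 lay below 3 of them. The means of 91.1 ± 6.31 and 80.4 ± 7.34 CPM (SD, n = 5) gave a log2 fold change of −0.18 (SE 0.076, fold 0.882, 95% interval 0.790 to 0.986), with an unadjusted p of 0.0298 and an adjusted p of 0.173 by edgeR. Notch2 held the miR-483-5p match shown above, and its level was not higher in Mir483Pat-KO. Of 15 endothelial markers, 2 fell in Mir483Pat-KO (13.3%, against 5.19% of all genes that passed in either direction), and their summed level was 631 to 710 CPM in WT and 551 to 655 CPM in Mir483Pat-KO. With group means removed, their sum and Notch2 had r = 0.796 over the 10 libraries (adjusted permutation p = 0.332, described below). Their part in the Notch2 values was not tested beyond this. With offsets for GC content and length the log2 fold change of Notch2 was −0.11.

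Hes1 and Hey1 are transcriptional repressors turned on by cleaved Notch receptors. Hes1 (chr16:30064384-30067796, plus strand) had 7.98, 9.62, 8.78, 9.61 and 6.33 CPM in WT and 7.56, 9.11, 7.65, 5.85 and 9.59 CPM in Mir483Pat-KO, with a log2 fold change of −0.080 (SE 0.15, 95% interval of the fold 0.762 to 1.17, edgeR adjusted p = 0.794). Hey1 (chr3:8663359-8667256, minus strand) had 0.975, 1.76, 1.28, 2.23 and 1.69 CPM in WT and 1.33, 1.98, 1.68, 1.71 and 2.10 CPM in Mir483Pat-KO, with a log2 fold change of 0.15 (SE 0.24, 95% interval of the fold 0.778 to 1.58, edgeR adjusted p = 0.762). Both ranges of each gene overlapped over most of their length, and Hey1 rests on few counts. With a library left out, the log2 fold change of Hey1 ranged from 0.018 (without WT replicate 1) to 0.29 (without WT replicate 4), and that of Hes1 from −0.17 (without WT replicate 5) to −0.0015 (without Mir483Pat-KO replicate 4).

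Sox4, a transcription factor that shares roles with Sox9 in the forming duct, is a gene of 1 coding exon at chr13:28948919-28953713 (minus strand). The opposite-strand gene Gm26735 covers 54.6% of its exonic bases, and the strand setting of the counting is not stated. It had 15.2, 13.9, 15.6, 16.8 and 12.7 CPM in WT and 15.6, 18.3, 18.4, 15.3 and 14.1 CPM in Mir483Pat-KO. Mir483Pat-KO replicates 2 and 3 lay above all WT libraries. The log2 fold change was 0.14 (SE 0.10, 95% interval of the fold 0.947 to 1.28, edgeR adjusted p = 0.451). Leaving out Mir483Pat-KO replicate 3 brought it to 0.083, and WT replicate 5 or Mir483Pat-KO replicate 2 to 0.088.

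Within the lower identification number range alone, with 4 WT and 2 Mir483Pat-KO libraries, the log2 fold changes of Krt19, Krt7 and Sox9 were −0.45, −0.42 and −0.22. Those of Spp1, Epcam, Jag1, Notch2, Hes1, Hey1 and Sox4 were 0.098, 0.13, −0.15, −0.11, −0.11, 0.071 and 0.14 there, and none of the 10 passed. The upper range, with 1 WT library, gave no fit of its own. Across all 14089 genes with a GC content, the log2 fold change was related to GC content (Spearman's rho −0.44, across genes, which are not independent replicates). Krt19, at 57.6% GC, stood at the 90th percentile of GC content and Spp1 at the 17.9th, and with offsets for GC content and length their log2 fold changes were −0.29 and −0.089.

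The spread between fetuses was wider in WT for 7 of the 10 genes. For Spp1 the coefficient of variation was 34.7% in WT and 19.9% in Mir483Pat-KO, for Krt19 31.3% and 21.4%, and for Notch2, at the other end, 6.93% and 9.13%. These differences in spread were not tested.

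The genes were then compared with each other over the 10 libraries, after the mean of each group had been taken off their log2 CPM, so that a shared difference between genotypes could not make a relation. Of the 45 pairs, 40 had a positive Pearson's r, with a median of 0.348, and 1 pair had an adjusted p under 0.05 (permutation within groups, all 14400 orders, Benjamini-Hochberg over 45 pairs). That pair was Krt19 and Sox9, with r = 0.983 and Spearman's rho = 0.964 (exact permutation p = 6.94e-05 for each, the smallest these orders can give, adjusted p = 0.00313). The relation did not rest on the extreme libraries, since r was 0.944 without WT replicate 4 and Mir483Pat-KO replicate 3, and it was 0.98 within WT, 0.989 within Mir483Pat-KO and 0.979 within the lower identification number range. The 2 genes had at most 104 and 79 counts per library, and lie on the same chromosome but share no exonic bases.

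The other relations did not pass. Krt7 followed both, with r = 0.801 for Sox9 and 0.782 for Krt19 (adjusted permutation p = 0.151 for each). Epcam went with Sox4 (r = 0.845, rho = 0.879, adjusted permutation p = 0.105 and 0.0552) and with Spp1 (r = 0.804, adjusted permutation p = 0.105). Notch2 had the most negative values, with r = −0.329 for Spp1 (adjusted permutation p = 0.594).

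**Figure D4:**
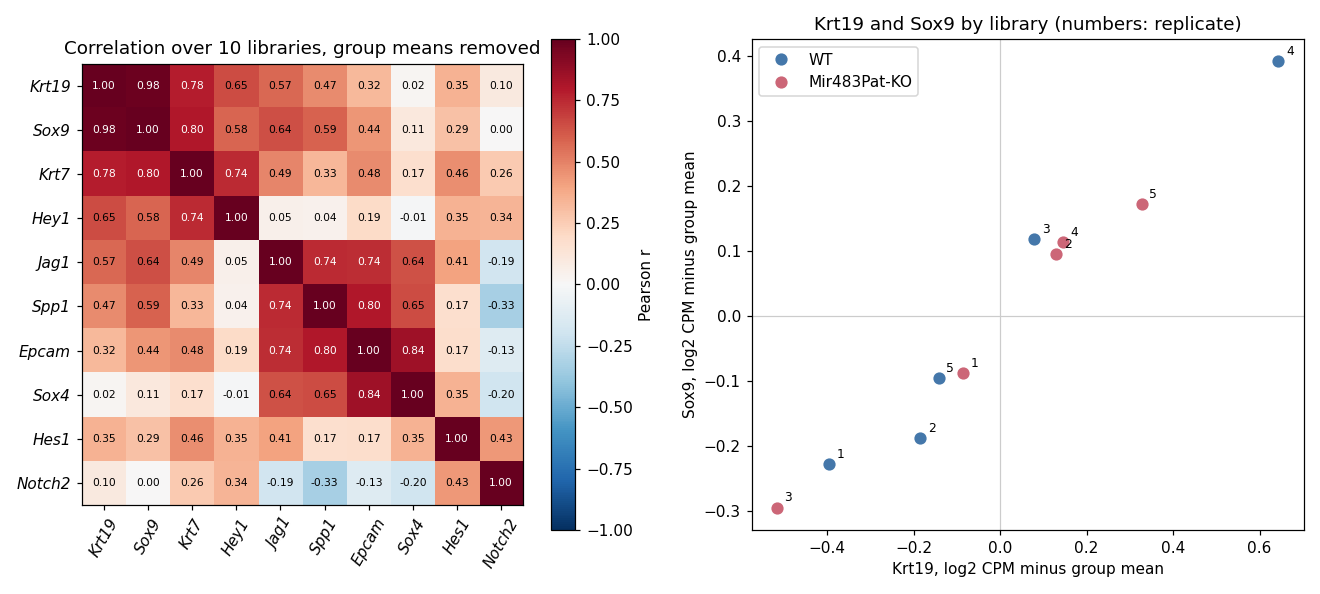
Left, Pearson's r of log2 CPM for each pair of genes over 10 libraries with group means removed, from −1 (blue) to 1 (red). Right, Krt19 against Sox9 (log2 CPM minus the group mean), 1 point per library with its replicate number, where WT replicate 4 is at the top and Mir483Pat-KO replicate 3 at the bottom (r = 0.983).

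The 5 genes of the whole table whose profile was most like the mean profile of the 5 bile duct markers over the same 10 libraries were Boc (r = 0.948), Pofut1 (0.946), Spon1 (0.945), Pamr1 (0.941) and Adamts10 (0.940). They were the highest of 14098 genes searched, and none of them differed between genotypes by edgeR (adjusted p from 0.465 to 0.959). Pofut1 adds fucose to Notch receptors and is one of the Notch pathway genes described next.

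The Notch pathway was followed through 58 further genes, of which 53 passed the filter on low counts and Dll3, Dtx1, Hes2, Hes5 and Hes7, with at most 8 counts in any library, did not. Of the 53, 1 passed edgeR's test (1.89%, against 5.19% of all genes tested), 10 had an unadjusted p under 0.05 (18.9%, against 22.2% of all genes), and the median log2 fold change was 0.010. The gene that passed was Cir1, a corepressor known to bind RBPJ. It had 14.2, 13.7, 14.6, 14.5 and 13.1 CPM in WT and 15.4, 16.5, 21.4, 21.3 and 19.7 CPM in Mir483Pat-KO. Every Mir483Pat-KO library was above every WT library, as in 3.33% of all genes. Mir483Pat-KO replicates 3 to 5, of the upper range, were the highest, while WT replicate 5, also of the upper range, was the lowest of all. Its log2 fold change was 0.43 (SE 0.10, 95% interval of the fold 1.16 to 1.56, edgeR adjusted p = 0.0258), under the 1.5-fold limit for a call. It was 0.16 within the lower range alone (adjusted p = 0.556), 0.34 with the range as a covariate (adjusted p = 0.0533) and 0.34 with GC content and length offsets (adjusted p = 0.0653), and it did not pass when WT replicate 5 or Mir483Pat-KO replicate 3, 4 or 5 was left out (adjusted p = 0.0547 to 0.0800, edgeR in each case).

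All 4 Notch receptors had negative log2 fold changes, also under each of the 21 alternatives, and none of the 4 passed edgeR's test. DESeq2 and limma-voom passed none of them either, and Notch1, Notch2 and Notch3 had an unadjusted p under 0.05, as did 22.2% of all genes. They were singled out after their values were seen. Of the endothelial markers 13 of 15 had negative log2 fold changes (median −0.14, 2 passed, summed levels given above), and of the mesenchymal markers 13 of 15 (median −0.38, summed level 786 to 1442 CPM in WT and 720 to 1083 CPM in Mir483Pat-KO). Of the 4 receptors, Notch2 alone was set against these sums, as described below. Its r was 0.796 with the endothelial and 0.698 with the mesenchymal sum (adjusted permutation p = 0.332 and 0.474). The part of these markers in the receptor values was not tested beyond this. Notch1, a receptor also used by blood vessels and blood-forming cells, had 45.7, 46.2, 47.1, 53.4 and 48.5 CPM in WT and 44.2, 45.4, 41.4, 36.7 and 40.9 CPM in Mir483Pat-KO. The Notch1 groups did not overlap (3.25% of all genes had every Mir483Pat-KO library below every WT library), with the nearest libraries at 45.7 and 45.4, and the log2 fold change was −0.21 (SE 0.073, edgeR adjusted p = 0.107). Notch3, which is known from mural and mesenchymal cells, had means of 8.89 ± 2.45 and 6.17 ± 1.20 CPM (SD, n = 5) and a log2 fold change of −0.53 (SE 0.18, edgeR adjusted p = 0.0982). Notch3 passed without WT replicate 2 (−0.63, edgeR adjusted p = 0.0431) and with no filter on low counts (adjusted p = 0.0206). Notch4, a receptor of the endothelium, had a log2 fold change of −0.27 (SE 0.14, edgeR adjusted p = 0.289).

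At the other steps of the pathway the values lay on both sides of 0. Of 5 ligand genes tested, counting Jag1, 4 were negative and 1, Dlk1, positive. Dlk1, a Notch-related gene of hepatoblasts and the most abundant of the list, had means of 239 ± 53.7 (WT) and 281 ± 59.5 CPM (Mir483Pat-KO; SD, n = 5, edgeR adjusted p = 0.391). Of 9 genes for the proteases that cleave the receptor, 6 were positive, among them Adam10, with 146 ± 20.6 and 179 ± 11.7 CPM and a log2 fold change of 0.30 (SE 0.091, edgeR adjusted p = 0.0667). Adam10 passed with no filter on low counts, with the replicate block, with the range as a covariate and by DESeq2 (adjusted p from 0.0136 to 0.0311). The corepressor gene Ncor1 had a log2 fold change of 0.050 (SE 0.062, edgeR adjusted p = 0.678). The HES and HEY family genes and Nrarp made 6 tested genes, counting Hes1 and Hey1. Of these, 3 were positive and 3 negative, and 0 had an unadjusted p under 0.05.

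Among 32 other genes of bile duct cells, 26 passed the filter on low counts. Cftr, Slc5a1, Sctr, Cldn4 and Muc1, which mark mature ducts or other lumenal epithelia, were among those that did not, with at most 13 counts in any library. Of the 26, 2 passed edgeR's test (7.69%, against 5.19% of all genes tested), both higher in Mir483Pat-KO. The split was 2 lower and 2 higher by DESeq2 and with the range as a covariate, 2 lower and 3 higher with the replicate block, and 1 lower and 1 higher with WT replicate 4, or Mir483Pat-KO replicate 5, left out. An unadjusted p under 0.05 was found for 12 (46.2%, against 22.2% of all genes), of which 9 were lower in Mir483Pat-KO. The median log2 fold change was −0.073. The list is not specific to ducts, since it holds genes shared with hepatocytes, such as Cdh1. Of 15 hepatocyte markers, 8 (53.3%) had an unadjusted p under 0.05, all lower in Mir483Pat-KO. The part of hepatocytes in the values of this list was not tested.

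Cd24a, a surface protein of hepatobiliary progenitors that red cell and B cell precursors also carry, had 889, 783, 827, 822 and 620 CPM in WT and 942, 1066, 1169, 1157 and 991 CPM in Mir483Pat-KO. The groups did not overlap. Of the 26 tested genes of the list, Cd24a alone had every Mir483Pat-KO library above every WT library, against 3.33% of all genes. In 1 gene every Mir483Pat-KO library was below every WT library, against 3.25% of all genes. The log2 fold change of Cd24a was 0.43 (SE 0.094, 95% interval of the fold 1.18 to 1.55, edgeR adjusted p = 0.0161). It was 0.27 within the lower range (adjusted p = 0.211) and 0.39 without Mir483Pat-KO replicate 4 (adjusted p = 0.0543, edgeR for both). Of 14 erythroid markers, 3 rose in Mir483Pat-KO (21.4%, against 5.19% of all genes that passed in either direction). Their summed level was 17510 to 22380 CPM in WT and 20570 to 28420 CPM in Mir483Pat-KO, and of 14 B-lymphoid progenitor markers 2 also rose (14.3%, summed level 131 to 165 CPM in WT and 147 to 182 CPM in Mir483Pat-KO). The part of either list in the Cd24a result was not tested.

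Tspan8, a membrane tetraspanin of epithelia, had 19.3, 18.6, 22.4, 15.9 and 13.4 CPM in WT and 19.95, 25.3, 26.0, 30.3 and 23.7 CPM in Mir483Pat-KO. Of the Mir483Pat-KO libraries 4 lay above all WT libraries and replicate 1 lay among them. The log2 fold change was 0.48 (SE 0.13, 95% interval of the fold 1.15 to 1.69, edgeR adjusted p = 0.0439). It was 0.24 within the lower range (adjusted p = 0.477) and 0.35 with GC content and length offsets (adjusted p = 0.0676), and it did not pass when WT replicate 4 or 5 or Mir483Pat-KO replicate 2, 3, 4 or 5 was left out (adjusted p from 0.0586 to 0.123, edgeR in each case). The epithelial cadherin Cdh1, shared by hepatocytes and cholangiocytes, had 146 ± 11.3 and 119 ± 15.2 CPM (SD, n = 5), a log2 fold change of −0.30 (SE 0.086, edgeR adjusted p = 0.0564), and passed by DESeq2 (adjusted p = 0.0203). The water channel gene Aqp1 had a log2 fold change of −0.087 (SE 0.073, edgeR adjusted p = 0.515).

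Signals that induce ducts besides Notch (TGF-beta, Hippo and laminin genes) were read from 30 genes, all of which passed the filter. By edgeR 0 of 30 passed (5.19% of all genes tested), 9 had an unadjusted p under 0.05 (30.0%, against 22.2% of all genes), DESeq2 passed 1 and limma-voom 0, and the median log2 fold change was 0.00050. The most abundant were the laminin chain gene Lamc1 (−0.24, SE 0.10), the Hippo kinase gene Stk4 (0.17, SE 0.076) and Nf2 (−0.046, SE 0.073), an upstream regulator of the Hippo kinases (log2 fold changes, edgeR adjusted p = 0.183, 0.209 and 0.757). The sign of Nf2 was not stable between settings.

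**Figure D5:**
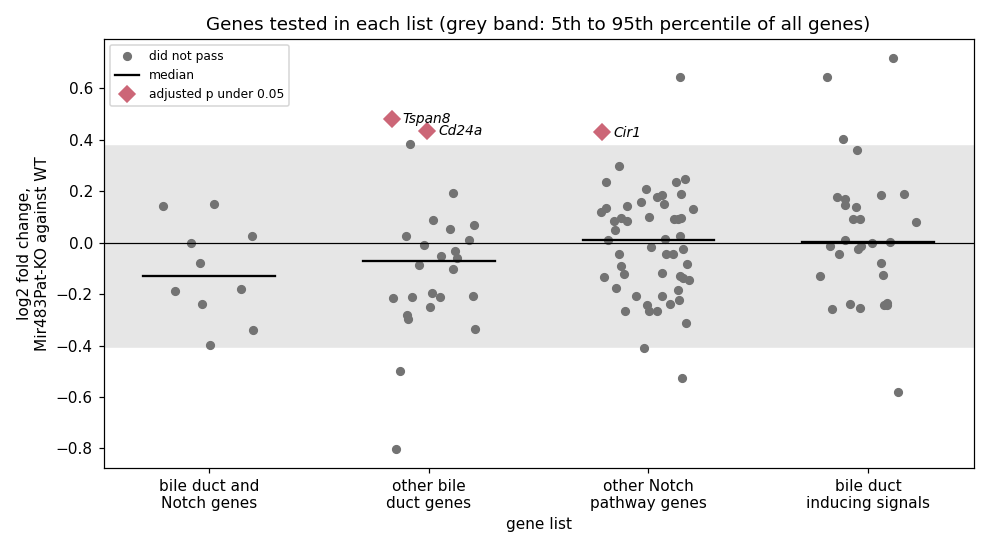
Log2 fold change (Mir483Pat-KO against WT, edgeR) of each tested gene of the 10 described genes, 26 other bile duct genes, 53 other Notch pathway genes and 30 genes of inducing signals, with the median as a line. Red diamonds mark the genes with an adjusted p under 0.05 (Tspan8, Cd24a and Cir1), and the grey band the 5th to 95th percentile of all genes tested.

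Markers of the other cells of the fetal liver were read against the same shares of all genes tested, 5.19% passing and 22.2% with an unadjusted p under 0.05. The hepatocyte markers summed to 212900 to 237900 CPM in WT and 190300 to 220900 CPM in Mir483Pat-KO (3 of 15 genes passed, all lower, and 8, or 53.3%, had an unadjusted p under 0.05). Of the endothelial markers, 2 of 15 passed, both lower. By edgeR 0 of 15 mesenchymal markers passed, 7 had an unadjusted p under 0.05, DESeq2 passed 3 and limma-voom 1. Of the erythroid markers, 3 of 14 passed, all higher, and 10 (71.4%) had an unadjusted p under 0.05. Summed levels gave a two-sided exact permutation p of 0.0238 for hepatocyte and erythroid, 0.0317 for endothelial and 0.0873 for mesenchymal markers (adjusted p over 10 lists 0.0794, 0.0794, 0.0794 and 0.146). The macrophage (2 of 15, lower), B-lymphoid progenitor (2 of 14, higher) and megakaryocyte (1 of 14, lower) markers had overlapping sums, with exact permutation p of 0.746, 0.349 and 0.468. The remaining 3 lists of the 10 were those described before. The other bile duct genes summed to 1760 to 2015 CPM in WT and 2032 to 2217 CPM in Mir483Pat-KO (exact permutation p = 0.00794, the smallest that 5 against 5 libraries can give, adjusted p = 0.0794). Cd24a alone carried this rise. Without it the sum of the other 31 genes was 1107 to 1187 CPM in WT and 1031 to 1090 CPM in Mir483Pat-KO, the opposite direction (a value added after the data had been seen, not tested). The sums of the other Notch pathway genes and the inducing signals had an exact permutation p of 0.0794 and 0.690 (adjusted p = 0.146 and 0.746). No marker gene of the 7 lists was at 0 in all libraries. WT replicates 3 and 4, the 2 highest for Jag1 and Krt7, were also the 2 highest for the mesenchymal sum (1420 and 1442 CPM).

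The sums of these 7 lists were set against each of the 10 genes in the same way as the genes against each other, a comparison added after the data had been seen. Of the 70 relations, 0 had an adjusted permutation p under 0.05. The largest by Pearson's r were those of Krt7 with the mesenchymal sum (r = 0.817, rho = 0.709, adjusted permutation p = 0.332) and of Notch2 with the endothelial sum (r = 0.796, rho = 0.636, adjusted permutation p = 0.332). Without the 2 libraries farthest from the median they were 0.651 and 0.685, and within the lower range 0.872 and 0.562. By Spearman's rho the largest was that of Krt7 with the megakaryocyte sum (rho = −0.782, r = −0.748, adjusted permutation p = 0.502 and 0.570). The smallest unadjusted permutation p was that of Jag1 with the macrophage sum (0.00826, r = −0.702, adjusted p = 0.332), whose r was 0.0266 within the lower range. The part of these cell populations in the values of the 10 genes was not tested beyond this.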

How the data were processed

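PolyA RNA of 10 E18.5 livers was sequenced. The authors aligned reads with STAR to GRCm38 with an Ensembl annotation and deposited raw counts per gene, without normalization. Whether counting used strand is not given in the sources used here, although the kit named in the methods marks strand. Groups came from the sample labels. Of 55401 genes, 55141 matched a symbol. Counts were tested in R 4.3.3 with edgeR 4.0.16 (filterByExpr, TMM, quasi-likelihood F-test, no covariates), with Benjamini-Hochberg adjustment over 14098 genes. CPM used TMM-scaled library sizes, and log2 CPM a prior count of 2. Floors and intervals of counts cover counting error only. Alternatives used limma 3.58.1, DESeq2 1.42.0 and mgcv 1.9.3. The fit was tested on simulated data. Replicates of a group differed beyond sampling noise (chi-square per degree of freedom of 4.86 or more in all 20 pairs).

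The genes and all lists were chosen with earlier results of these data known. Named were the 10 genes, Mir483, the genes of a list that passed, and, where fewer than 3 passed, its 3 most abundant genes. Notch1, Notch3 and Notch4 were added after their values were seen, and marker genes were given as sums. Of the erythroid list 14 of 15 genes matched. Figures used Python 3.11.15 and matplotlib 3.10.9. Of the other bile duct genes, 1 is not reported here by name.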

Additional observations from a re-analysis of the deposited data

Results flagged for a closer look

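Of the 20 groups of 5 values examined (10 genes in 2 genotypes), 1 held a library far from the others. Spp1 had 67 CPM in Mir483Pat-KO replicate 2, against 47.4 CPM in the next library, a gap of 0.821 of the group's range. The limit used is one that marks about 1 in 20 groups of normally distributed values, and its rate in these data was not measured.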

How the results depend on the processing

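The count of 0 of 10 genes passing held under all 21 alternatives (RLE scaling, robust fit, limma-voom, DESeq2, glmTreat, other filters, the replicate block, the range of identification numbers, GC content and length offsets, and each library left out). The other lists moved. Other bile duct genes passing numbered 2, and 0 with glmTreat and in the lower range alone, 1 with GC offsets, 4 with no filter, the range as covariate or DESeq2, 5 with the replicate block, and 0 to 3 with a library left out (0 without Mir483Pat-KO replicate 4; 1 without WT replicate 5, Mir483Pat-KO replicate 2 or 3). Other Notch genes passing numbered 1, and 0 with glmTreat, the lower range or GC offsets, 2 with the replicate block or DESeq2, 3 with no filter, and 0 to 2 with a library left out (2 without WT replicate 2). Inducing signal genes passing numbered 0, and 1 with the replicate block, the covariate or DESeq2, 2 with no filter, and 0 to 2 with a library left out (2 without WT replicate 1, 1 without WT replicate 3). Over all genes 731 passed, against 4 with glmTreat, 23 in the lower range, 1258 with no filter, 1189 with the covariate, 1167 with DESeq2, 1338 with the replicate block, and 279 to 863 with a library left out (279, 396 and 417 without Mir483Pat-KO replicates 4, 2 and 3; 425 and 403 without WT replicates 4 and 5). The lower range and the fits with a library left out hold fewer libraries, and glmTreat tests against a stricter null. The cause of these moves was not tested.

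Of 24 single genes recomputed, 4 changed sign. Spp1 turned to −0.089 with GC offsets and ranged from −0.14 to 0.18 with a library left out. Epcam turned to 0.00012 with no filter, 0.012 with the replicate block, 0.14 with the covariate, 0.13 in the lower range, 0.050 with GC offsets and 0.0017 with DESeq2, and ranged from −0.18 to 0.16 with a library left out. Hes1 turned to 0.029 with the covariate, and Nf2 to 0.074 in the lower range and 0.024 with GC offsets. Same-numbered WT and Mir483Pat-KO libraries deviated from their group means with a mean correlation of 0.0871 (−0.0496 to 0.261), against −0.0217 for other pairs. The difference between these correlations was not tested. The labels do not say whether a shared number stands for a pair, so the main fit did not pair them. Low counts limit Hey1 most.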
